A study of Mus musculus with 6 samples.

Results

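The levels of 10 G protein-coupled receptor genes for lipids, protons and formyl peptides were examined in microglia of the mouse optic nerve. They were taken by symbol from a table of 37447 genes: Gpr34, Gpr84, Gpr183, Gpr65, Lpar5, Cysltr1, Ptafr, Cnr2, Fpr1 and Fpr2, each with 1 row. All 10 were found and all 10 passed the filter on low values (1 FPKM or more in 2 or more libraries of the 6). An FPKM value counts fragments relative to the length of the transcript and the size of the library, so levels of different genes can be compared.

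The 6 libraries were made from flow-sorted microglia, the resident macrophages of nervous tissue, of 3-month-old C57BL/6 mice. All mice carried Nf1 flox/mut, that is 1 floxed and 1 mutant copy of the neurofibromatosis type 1 gene. The 2 libraries called FM had these alleles alone (FM 1 labelled male, FM 2 female). The 4 libraries called FMC also carried GFAP-Cre, a Cre recombinase under a promoter active in astroglial cells (labelled female for FMC 1 and FMC 4 and male for FMC 2 and FMC 3), in a study of optic glioma. The promoter is not one of microglia, so the sorted cells are not where the recombinase is meant to act. The sort's antibodies and the number of mice in a library are not given in the sources used here. The labels call the libraries biological replicates, and p-values measure only the spread between them.

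These receptors span the membrane with a bundle of helices and pass a signal to G proteins inside the cell. Microglia and other macrophages use them to sense lipids released by damaged or activated cells, acid, and peptides from bacteria or dying cells, and answer by moving, changing shape or releasing mediators. Gpr34 binds lysophosphatidylserine and is one of the transcripts by which microglia are commonly recognised. Lpar5 binds lysophosphatidic acid, Ptafr platelet-activating factor, Cysltr1 the cysteinyl leukotrienes, Gpr183 dihydroxylated oxysterols and Cnr2 the endocannabinoids. Gpr84 responds to medium-chain fatty acids, Gpr65 to protons, and Fpr1 and Fpr2 to formyl peptides, with Fpr2 also taking up many other peptides and lipids as ligands.

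From 13333 to 15511 genes per library reached 1 FPKM, and library sums ran from 417487 to 671374 FPKM. The sum was higher in all 3 libraries labelled female (606861 to 671374) than in the 3 labelled male (417487 to 491810). All 13 markers of microglia in a fixed list were present, with a summed level of 3530 to 7146 FPKM, P2ry12 at 185 to 403 FPKM and Tmem119 at 156 to 440 FPKM. Their difference between genotypes was negative in 12 of 13, none called. Markers of other cells were present too, and no marker of any list was at 0 in all libraries. Neutrophil markers summed to 318 to 611 FPKM, of which Csf3r, also expressed by other myeloid cells, made up 158 to 301 FPKM. Markers of border-associated macrophages summed to 273 to 751 FPKM and B cell markers to 30.3 to 145 FPKM. T cell markers summed to 28.5 and 37.9 FPKM in FM 1 and FM 2, and to 290, 88.6, 72.8 and 32.7 FPKM in FMC 1 to FMC 4. The difference between genotypes was positive in 11 of 12 tested T cell markers and 7 of 9 tested B cell markers, none called. In bulk RNA fewer cells of a type and less RNA per cell cannot be told apart.

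Fpr1 and Fpr2 were the most variable of the 10 receptors, and they are neighbours on chromosome 17, where mm9 places Fpr1 (ENSMUSG00000045551) at 18013435 to 18020904 and Fpr2 (ENSMUSG00000052270) at 18024788 to 18030916, 3883 bases apart. In GENCODE M21, an annotation of another build (GRCm38), Fpr1 is on the minus strand and Fpr2 on the plus strand, so their start sites face each other. The gene model of Fpr3 (18024816 to 18108641 in mm9) covers nearly all of Fpr2, and in GENCODE M21 both are on the plus strand and have 48 exon bases in common. Their coding sequences were compared because reads from such copies can be assigned to either gene. Over the coding sequence Fpr2 was identical to Fpr3 at 88.2% of 1056 aligned bases, with a longest identical run of 94 bases, and to Fpr1 at 70.4% of 1041 bases, with a longest run of 50. The stretch that holds the run of 94 is shown from coding base 204 of Fpr2 and Fpr3 and from coding base 228 of Fpr1 (GENCODE M21 transcripts), 120 bases each, 5′ to 3′, with capitals at bases unlike Fpr2.
Fpr2: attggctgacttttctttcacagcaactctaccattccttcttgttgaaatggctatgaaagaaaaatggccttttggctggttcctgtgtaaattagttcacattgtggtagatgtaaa
Fpr3: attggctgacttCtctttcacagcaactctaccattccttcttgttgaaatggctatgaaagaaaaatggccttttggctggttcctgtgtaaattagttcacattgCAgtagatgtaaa
Fpr1: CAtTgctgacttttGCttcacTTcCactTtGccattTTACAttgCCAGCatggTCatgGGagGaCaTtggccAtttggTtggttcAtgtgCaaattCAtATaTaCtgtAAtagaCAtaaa
In this stretch 3 bases of Fpr3 and 41 bases of Fpr1 differ from Fpr2, so a short fragment from it could separate Fpr2 from Fpr1 but not always from Fpr3. The run of 50 bases shared with Fpr1 lies outside this stretch, at coding bases 397 to 446 of Fpr1. Values of Fpr2 are therefore uncertain to the extent that reads were shared with Fpr3 or, in that run, with Fpr1.

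Because Fpr1 and Fpr2 also varied in level more than the other 8 genes, the 250 bases before their start sites are shown (RefSeq, GRCm38.p6, 5′ to 3′ on the gene's strand). Capitals mark GAGGAA, the core of the PU box bound by the myeloid factor PU.1, and TATAAA, the TATA box, on either strand. Fpr1 is chr17:17883940-17884189 on the minus strand and Fpr2 is chr17:17887574-17887823 on the plus strand.
Fpr1: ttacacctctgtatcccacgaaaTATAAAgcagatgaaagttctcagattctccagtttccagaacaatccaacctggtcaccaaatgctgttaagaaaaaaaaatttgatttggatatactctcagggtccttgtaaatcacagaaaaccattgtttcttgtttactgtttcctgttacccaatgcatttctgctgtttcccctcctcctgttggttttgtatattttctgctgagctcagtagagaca
Fpr2: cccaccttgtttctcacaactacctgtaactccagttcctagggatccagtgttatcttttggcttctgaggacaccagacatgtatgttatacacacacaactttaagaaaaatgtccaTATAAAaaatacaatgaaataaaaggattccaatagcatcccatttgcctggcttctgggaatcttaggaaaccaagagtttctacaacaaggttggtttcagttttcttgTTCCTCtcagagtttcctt
Fpr2 held 1 match to GAGGAA, read on the other strand as TTCCTC, whose first base lies 19 bases before the start site, and a TATAAA 130 bases before it. Fpr1 held TATAAA 227 bases before its start and no GAGGAA. The RefSeq table had promoters for 8 of the 10 genes, and Fpr2, Gpr65 and Ptafr held GAGGAA, which was also found in 23.3% of all 32851 promoters of this length. TATAAA was found in Fpr1, Fpr2 and Gpr65 and in 12.4% of all promoters. No match of one motif overlapped a match of the other in the sequences shown, and a match describes these letters only.

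The receptors spanned a wide range of levels, and 2 of them carried most of the signal. Gpr34 and Gpr84 together made up between 61.0% (FMC 3) and 69.0% (FM 2) of the summed level of the 10, which was 495 to 753 FPKM. Among the 18208 genes that passed the filter, Gpr34 stood at the 97.8th to 98.7th percentile of a library and Gpr84 at the 96.9th to 98.4th. Fpr1 was at the other end, between the 18.5th and 62.8th. By mean FPKM the order was Gpr34 (227 ± 59.3, SD, n = 6), Gpr84 (183 ± 51.1), Cysltr1 (60.6 ± 13.6), Gpr65 (35.5 ± 9.03), Ptafr (34.0 ± 10.7), Fpr2 (33.8 ± 28.2), Lpar5 (26.6 ± 8.84), Gpr183 (18.5 ± 4.36), Cnr2 (11.6 ± 2.15) and Fpr1 (4.54 ± 3.65). Only between Gpr84 and Cysltr1 did the ranges of neighbours in this order not overlap. Cysltr1 was above Gpr65, Lpar5 above Gpr183 and Gpr183 above Cnr2 in all 6 libraries, although their ranges overlapped. Gpr65 and Ptafr were each the higher in 3 of 6 libraries, Ptafr and Fpr2 likewise, and Fpr2 was above Lpar5 in only 2 of 6. Neighbours among these 4 genes thus had no steady order, although Gpr65 was above Lpar5 in every library but FMC 1.

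**Figure D1:**
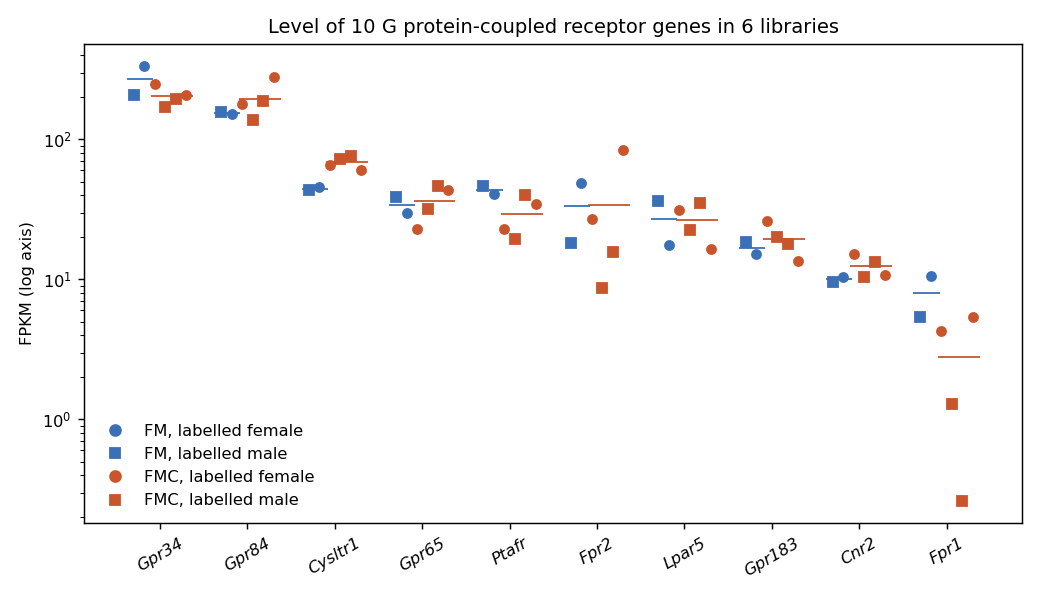
Level of each receptor gene in FPKM (log axis) in the 6 libraries, with receptors ordered by their mean. Points are libraries, coloured by genotype and shaped by labelled sex, and bars are the means of FM and FMC; Gpr34 and Gpr84 lie above all others in every library, and Fpr1 spans from 0.261 to 10.6 FPKM.

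The genotype comparison asks which receptors differ in microglia of mice that also carry the Cre transgene. None of the 10 passed the test over all 18208 genes (limma on log2(FPKM + 1), adjusted p under 0.05), and none had an unadjusted p under 0.05. Over all genes limma called 0.0275% (5 genes, all lower in FMC), and 5.34% (973 genes) had an unadjusted p under 0.05. The difference was positive in 6 receptors and negative in 4, with a median of 0.02 on the log2 scale, where the median of all genes tested was -0.12. The median of all genes was -0.03 with the libraries scaled by median ratios and 0.04 after quantile normalization, so differences of that size depend on the scaling. In 1 receptor, Cysltr1, every FMC value exceeded both FM values, against 4.34% of all genes, and in 1, Ptafr, every FMC value was below both, against 8.22% of all genes.

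Cysltr1, a receptor through which leukotrienes contract airway muscle and recruit leukocytes, had the most even separation of the groups. It measured 43.6 and 45.6 FPKM in FM 1 and FM 2, then 65.6, 73.0, 75.7 and 60.0 FPKM in FMC 1 to FMC 4. The lowest FMC library stood above the higher FM library, and the 2 FM libraries were nearly equal. FM averaged 44.6 ± 1.40 FPKM (SD, n = 2) and FMC averaged 68.6 ± 7.12 FPKM (SD, n = 4). The log2 difference was 0.60 ± 0.41 (SE), a fold of 1.52, with a 95% interval of -0.33 to 1.53 and an adjusted p of 0.993 in limma. The gene's own residual SD was 0.13, and limma's standard error is wider because it draws each gene towards the spread of genes of its level. The difference was 0.73 between FMC 2 and FM 1 and 0.72 between FMC 3 and FM 2, the pairs whose titles carry dates 1 day apart. Both libraries of the first pair were labelled male. In the second, FM 2 was labelled female and FMC 3 male, so it mixes sex with genotype. The gene (ENSMUSG00000052821) is on chromosome X at 103769685 to 103799018 in mm9. The table also lists a U1 model inside it, found in FMC 3 (21.5 FPKM) and listed at 0 elsewhere, and Gm5127, which overlaps it in part and runs past its end, at 3.67 FPKM or less, which GENCODE M21 puts on the opposite strand.

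Of the lysophospholipid and fatty acid receptors, Gpr34 and Gpr84 were high in every library. Gpr34 measured 206 and 336 FPKM in FM 1 and FM 2, then 250, 170, 193 and 206 FPKM in FMC 1 to FMC 4. FM 2 was the highest and FMC 2 the lowest, and the groups overlapped (means of 271 ± 91.5 FPKM over the 2 FM and 205 ± 33.4 FPKM over the 4 FMC libraries, SD). The log2 difference was -0.38 ± 0.45 (SE, limma adjusted p = 0.999). It went from -0.03 without FM 2 to -0.73 without FM 1, so the choice of FM library sets its size. The gene (ENSMUSG00000040229) lies on chromosome X at 13209215 to 13217984, inside the longer Cask model, which GENCODE M21 puts on the opposite strand and whose value is missing in FMC 1.

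Gpr84, which is induced in activated macrophages, measured 158 and 152 FPKM in the FM libraries, against 179, 137, 189 and 280 FPKM across FMC 1 to FMC 4. FMC 4 was the highest and FMC 2 the lowest, with both FM libraries in between. The log2 difference was 0.29 ± 0.46 (SE, limma adjusted p = 0.999). Gpr34 exceeded Gpr84 in 5 libraries, by 1.02-fold (FMC 3) to 2.20-fold (FM 2), and in FMC 4 it was at 0.736 of Gpr84. Gpr84 (ENSMUSG00000063234) is on chromosome 15 at 103138667 to 103140869, and no other model of the table overlaps it.

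Lpar5 measured 36.2 and 17.6 FPKM in the FM libraries, against 31.4, 22.6, 35.3 and 16.4 FPKM across FMC 1 to FMC 4, so libraries of each genotype covered about the same range. Its log2 difference was 0.00 ± 0.54 (SE), with a 95% interval of -1.23 to 1.24, and the 2 date pairs gave -0.66 and 0.96. An interval this wide leaves room for a change in either direction. Lpar5 (ENSMUSG00000067714) is on chromosome 6 at 125017938 to 125032490.

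Ptafr, whose ligand is a potent inflammatory phospholipid, measured 46.2 and 40.7 FPKM in the FM libraries, against 23.1, 19.3, 40.1 and 34.5 FPKM across FMC 1 to FMC 4. All FMC libraries lay below both FM libraries, but FMC 3 by only a small margin below FM 2. The means were 43.5 ± 3.88 FPKM (SD, n = 2) and 29.2 ± 9.70 FPKM (SD, n = 4). The log2 difference was -0.61 ± 0.49 (SE), a fold of 0.65, with a 95% interval of -1.72 to 0.50 and an adjusted p of 0.993 in limma. The date pairs gave -1.22 and -0.02, so the difference was present in 1 pair and near 0 in the other. The summed level of border-associated macrophage markers was 544 and 751 FPKM in the FM libraries against 273 to 429 FPKM in the FMC libraries, with 8 of 8 tested markers at a negative difference, none called, and none listed at 0 in all libraries. Their part in the values of Ptafr was not tested. Ptafr (ENSMUSG00000056529) is on chromosome 4 at 132119982 to 132138598.

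The oxysterol, cannabinoid and proton receptors varied by 1.92-fold, 1.57-fold and 2.05-fold between the lowest and the highest library. Gpr183, which guides B cells and other leukocytes along oxysterol gradients, measured 18.5 and 15.2 FPKM in the FM libraries, against 26.0, 20.0, 17.8 and 13.5 FPKM across FMC 1 to FMC 4. FMC 1, the library with the highest T cell and B cell marker sums, was the highest and FMC 4 the lowest. The part of those markers in this value was not tested. FMC minus FM came to 0.16 ± 0.51 (SE, limma adjusted p = 0.999), and it was 0.01 without FMC 1. Gpr183 (ENSMUSG00000051212), on chromosome 14 at 122351553 to 122364415, sits inside Ubac2, which GENCODE M21 puts on the opposite strand and which was at 1.51 to 16.9 FPKM.

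Cnr2, the cannabinoid receptor of immune cells, measured 9.61 and 10.4 FPKM in the FM libraries, against 15.1, 10.4, 13.4 and 10.7 FPKM across FMC 1 to FMC 4. FMC 1 and FMC 3 were the highest, and FMC 2 and FM 2 were level. On the log2 scale FMC minus FM was 0.27 ± 0.54 (SE, limma adjusted p = 0.999). Cnr2 (ENSMUSG00000062585) lies on chromosome 4 at 135451309 to 135476122.

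Gpr65, which raises cyclic AMP when the surroundings turn acidic, measured 38.5 and 29.7 FPKM in the FM libraries, against 22.8, 31.7, 46.6 and 43.5 FPKM across FMC 1 to FMC 4. The lowest and the highest library were both FMC. FMC minus FM came to 0.04 ± 0.49 (SE, limma adjusted p = 0.999), with date pairs at -0.27 and 0.63. Gpr65 (ENSMUSG00000021886) is on chromosome 12 at 99506845 to 99514834.

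Fpr1, a receptor by which neutrophils and macrophages follow bacterial peptides, had the largest difference of the 10 in size and the widest relative range. It measured 5.42 and 10.6 FPKM in the FM libraries, against 4.25, 1.29, 0.261 and 5.43 FPKM across FMC 1 to FMC 4. FMC 2 and FMC 3 were low, and FMC 4 was level with FM 1, so the groups just overlapped. The means were 7.99 ± 3.63 FPKM (SD, n = 2) and 2.81 ± 2.43 FPKM (SD, n = 4). On the log2 scale FMC minus FM was -1.45 ± 0.90 (SE), a fold of 0.37, with a 95% interval of -3.50 to 0.59 and an adjusted p of 0.993 in limma. It stayed negative with each library left out (-1.88 to -1.01), and the date pairs gave -1.48 and -3.20. It was -2.04 with a pseudocount of 0.1 and -2.34 with the dates as a block. Only the libraries of the 2 date pairs inform that block fit, so it restates the pairs. The second pair also sets FM 2, labelled female, against FMC 3, labelled male. Neutrophil marker sums were 591 and 318 FPKM for the FM libraries against 611, 369, 387 and 518 FPKM for FMC 1 to FMC 4, with 6 of 10 tested markers at a positive difference and none called. Border-associated macrophage sums were higher in both FM libraries than in all 4 FMC libraries, as given above. Their part in the values of Fpr1 was not tested.

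Fpr2, the relative of Fpr1 with the broadest ligands, measured 18.1 and 49.0 FPKM in the FM libraries, against 27.2, 8.70, 15.8 and 83.8 FPKM across FMC 1 to FMC 4. The lowest and the highest library were again both FMC. The means were 33.5 ± 21.8 FPKM (SD, n = 2) and 33.9 ± 34.1 FPKM (SD, n = 4), and the log2 difference was -0.31 ± 0.85 (SE, adjusted p = 0.999, limma). Its sign turned when FM 2 or FMC 2 was left out (0.39 and 0.15). Both date pairs were negative (-0.98 and -1.58), but the second sets FM 2, labelled female, against FMC 3, labelled male. Both female FMC libraries lie outside the pairs. A fit with these dates as a block gave -1.28, which restates the pairs, since only their libraries inform it. Fpr2 exceeded Fpr1 in every library, by 3.34-fold in FM 1 and 4.64-fold in FM 2 and by 6.40, 6.72, 60.4 and 15.4-fold in FMC 1 to FMC 4. The ratio was thus higher in all FMC libraries, a pattern noticed in these values and not tested. The 60.4-fold value rests on the 0.261 FPKM of Fpr1 in FMC 3. Fpr3, which overlaps Fpr2, ranged from 1.21 FPKM in FMC 3 to 38.1 FPKM in FMC 4, so FMC 4 was the highest library for both.

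**Figure D2:**
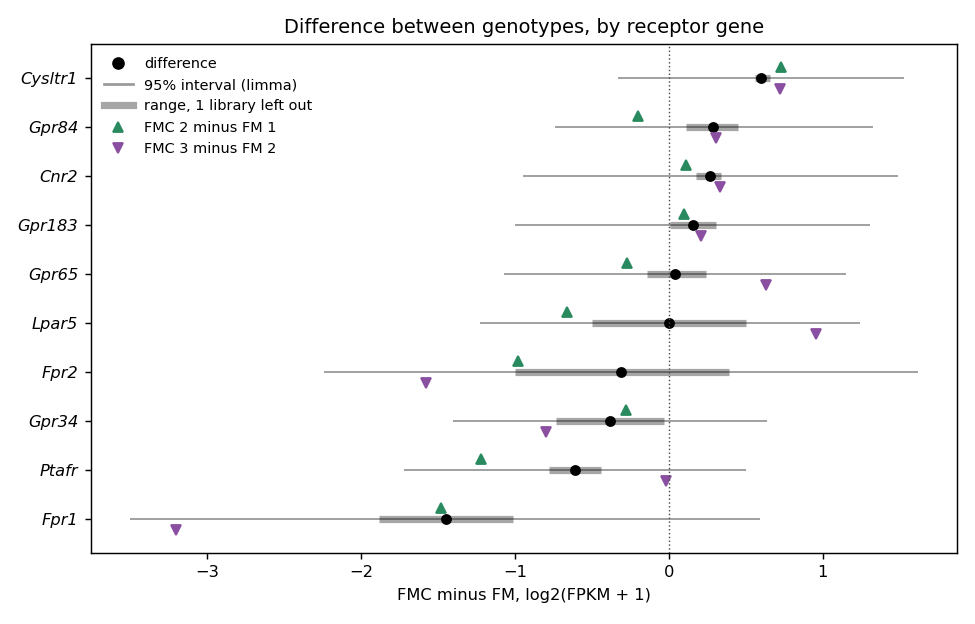
Difference between genotypes (FMC minus FM) on the log2(FPKM + 1) scale for each receptor, with its 95% interval from limma, the range over fits with 1 library left out, and the differences of the 2 pairs of libraries with dates 1 day apart. All 10 intervals cross 0. Cysltr1 has the narrowest leave-one-out range, 0.56 to 0.66, and its date pairs give 0.73 and 0.72. The pair of FMC 3 and FM 2 also differs in labelled sex.

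Between labelled sexes Fpr2 and Fpr1 had the largest differences of the 10 receptors, and no receptor passed the test. With genotype kept in the model, limma called 0 of 18208 genes between female and male libraries (0%) and 0 of the 10 receptors. The sexes are those of the labels, and no level of a sex-specific gene is given here to check them. An unadjusted p under 0.05 was reached by 7.44% of genes (1354), with 5.55% (1011) higher in female libraries, and by 1 receptor. That receptor was Fpr2, at 49.0, 27.2 and 83.8 FPKM in the 3 female libraries and at 18.1, 8.70 and 15.8 FPKM in the 3 male libraries. Every female library lay above every male library, which held for 9.03% of all genes, and no receptor had every male library above every female one (3.27% of genes). The means were 53.3 ± 28.5 FPKM (SD, n = 3) and 14.2 ± 4.89 FPKM (SD, n = 3). Female minus male came to 1.76 ± 0.56 on the log2 scale (SE), a fold of 3.38, with a 95% interval of 0.45 to 3.06, an unadjusted p of 0.0148 and an adjusted p of 0.531 in limma.

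The difference of Fpr2 was 1.39 within FM (1 library of each sex) and 1.94 within FMC (2 of each). Both signs follow from every female library lying above every male one, so their agreement is not a separate result. Over all 6 libraries the difference was 1.50 after scaling by median ratios and 1.47 after quantile normalization, where the median of all genes went from 0.15 to -0.04 and -0.01. The summed level of microglia markers was also higher in all 3 female libraries (4801 to 7146 FPKM) than in the male ones (3530 to 4111 FPKM), and 5 of 13 markers had every female library above every male one. The sum over all genes was higher in the female libraries too (606861 to 671374 against 417487 to 491810 FPKM), and the marker sums were not scaled for it. The sum of the dendritic cell list was also higher in all 3 female libraries (340 to 468 against 215 to 306 FPKM), but Siglech, shared with the microglia list, has its highest values. Of its 6 tested markers only Siglech had every female library above every male library. The neutrophil sums overlapped (318 to 611 against 369 to 591 FPKM). The part of these markers in the values of Fpr2 was not tested.

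Fpr1 was at 10.6, 4.25 and 5.43 FPKM in the female libraries and at 5.42, 1.29 and 0.261 FPKM in the male libraries. FM 1 was above FMC 1 and just below FMC 4, so the sexes overlapped, and the log2 difference was 1.47 ± 0.73 (SE, limma adjusted p = 0.712). The other 8 receptors had log2 differences between -0.53 (Lpar5) and 0.45 (Gpr34), with adjusted p of 0.808 to 0.997. The 2 with the largest positive differences among these, Gpr34 at 0.45 and Gpr84 at 0.30, turned to -0.16 and -0.27 after quantile normalization. A fit with an interaction of genotype and sex, added after the data were seen, called 0% of genes and none of the receptors (limma), with a median over the 10 of 0.23.

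**Figure D3:**
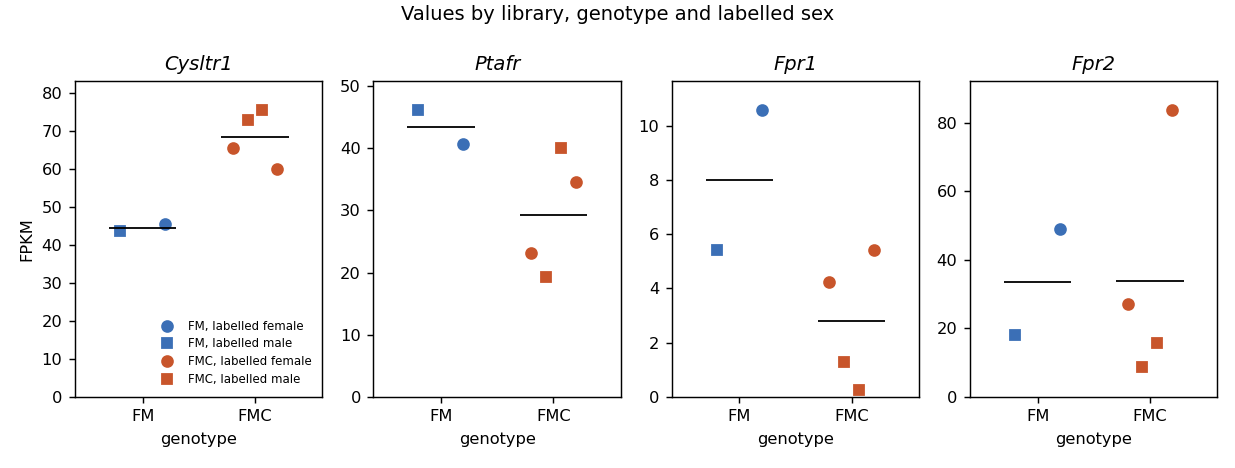
FPKM of Cysltr1, Ptafr, Fpr1 and Fpr2 in each library (linear axes from 0), by genotype, with circles for libraries labelled female and squares for male; bars are group means. Cysltr1 separates the genotypes (43.6 and 45.6 against 60.0 to 75.7 FPKM), while in Fpr2 the 3 circles (27.2 to 83.8 FPKM) lie above the 3 squares (8.70 to 18.1 FPKM).

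Most of these receptors varied less between libraries of a genotype than genes usually did in this table. The residual SD on the log2 scale was below the median of all tested genes (0.84) in 8 of 10 receptors, with a median of 0.39. Spread depends on level, so each was also set beside the 1000 tested genes nearest to it in mean level. Cysltr1 had 0.13 where those genes had a median of 0.60, Cnr2 0.21 against 0.84, Gpr34 0.32 against 0.61, and Gpr183 0.34 against 0.73. Gpr84 (0.36), Gpr65 and Ptafr (0.42 each) and Lpar5 (0.54) were below theirs too. Fpr1 was near its own (0.99 against 1.05), and Fpr2 was above it (1.25 against 0.68). These values describe the libraries and were not tested.

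**Figure D4:**
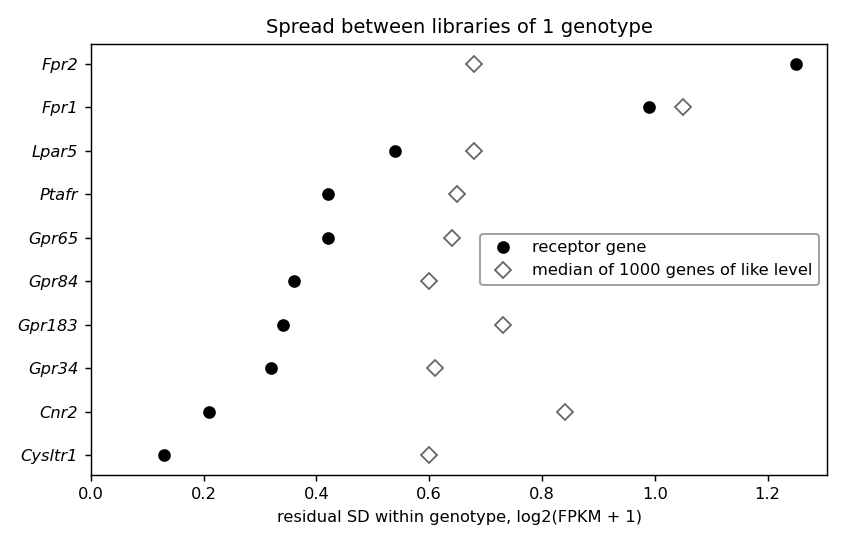
Residual SD between libraries of 1 genotype on the log2(FPKM + 1) scale for each receptor (filled circles) beside the median of the 1000 tested genes nearest in mean level (open diamonds). Fpr2, at 1.25, lies to the right of its diamond and the others to the left.

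The genes whose values followed each receptor most closely over the 6 libraries were found by Pearson's r of log2(FPKM + 1) among 8100 named genes with a mean of at least 5 FPKM. They were Kbtbd2 for Gpr34 (r = 0.996), Hirip3 for Gpr84 (0.991), Slc38a10 for Gpr183 (0.995), Rsbn1l for Gpr65 (0.996) and Malat1 for Lpar5 (0.972). For the others they were Rsrc1 for Cysltr1 (0.994), Ggps1 for Ptafr (0.998), Dph5 for Cnr2 (0.982), Mrpl33 for Fpr1 (0.993) and Mbip for Fpr2 (0.992). With 6 libraries such values are easily reached: between 3 (Lpar5) and 63 (Fpr2) genes had an r over 0.95.

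The wider pathway gave no call either. Of 27 tested receptors related to the 10 (of 46 in the table), limma called 0 between the genotypes and 0 at an unadjusted p under 0.05, with 11 positive and 16 negative differences and a median of -0.13, beside -0.12 for all genes. The nearest to the threshold were P2ry14, a receptor for UDP-sugars, with 0.804 and 0.196 FPKM in the FM libraries, against 4.89, 5.06, 0.838 and 9.84 FPKM across FMC 1 to FMC 4, and Ptger4, a prostaglandin receptor, with 3.63 and 0.728 FPKM in the FM libraries, against 5.29, 10.0, 4.14 and 10.9 FPKM across FMC 1 to FMC 4. In both every FMC value exceeded both FM values, as in 3 of the 27 and in 4.34% of all genes, although FMC 3 was close to FM 1. P2ry14 was under 1 FPKM in both FM libraries and in FMC 3. Cnr1, the cannabinoid receptor of neurons, was between 0.123 and 3.85 FPKM, against 9.61 to 15.1 FPKM for Cnr2, which exceeded it in all 6 libraries.

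Of 36 tested genes that make, release or clear ligands of the 10 receptors, limma called 0, and the median difference was -0.21. An unadjusted p under 0.05 was reached by 1 of the list, beside 5.34% of all genes. That gene was Dpep2, a dipeptidase that splits cysteinyl leukotrienes, the ligands of Cysltr1. It measured 7.98 and 11.7 FPKM in the FM libraries, against 0.180, 1.99, 0.817 and 1.65 FPKM across FMC 1 to FMC 4. All FMC libraries were thus well below both FM libraries, and the log2 difference was -2.39 ± 0.76 (SE, limma adjusted p = 0.684). Every FMC value was below both FM values in 4 of the 36 genes, beside 8.22% of all genes. Further up the same pathway, and named after their values were seen, Alox5ap, which presents arachidonic acid to the lipoxygenase that starts leukotriene synthesis, measured 409 and 1198 FPKM in the FM and 257 to 927 FPKM in the FMC libraries. Likewise Ltc4s, which makes the first cysteinyl leukotriene, measured 28.4 and 169 against 20.3 to 61.9 FPKM. Their groups overlapped.

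Mgll, the lipase that clears an endocannabinoid, measured 42.5 and 7.38 FPKM in the FM libraries and 1.20 to 9.22 FPKM in the FMC libraries (log2 difference -1.98 ± 0.92 SE, adjusted p = 0.967 in limma), and FM 1 stood far above the other 5 libraries. Camp, which encodes an antimicrobial peptide of neutrophil granules that binds Fpr2, measured 36.5 and 0.268 FPKM in the FM libraries and 13.3 to 117 FPKM in the FMC libraries, with overlapping groups.

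Downstream of the receptors, limma called 0 of 19 G protein subunits, 0 of 22 regulators, receptor kinases and arrestins, and 0 of 26 second messenger effectors. With an unadjusted p under 0.05 there were 1, 1 and 0, beside 5.34% of all genes. The medians were 0.12, -0.26 and -0.08, beside -0.12 over all genes. Gnb5, a beta subunit found mainly in neurons, measured 6.03 and 7.89 FPKM in the FM and 0.180 to 1.77 FPKM in the FMC libraries (log2 difference -2.15 ± 0.71 SE, limma adjusted p = 0.689). The widely expressed subunit gene Gnb2 measured 51.4 and 80.1 against 14.1 to 40.1 FPKM (adjusted p = 0.940), and Rgs4, a brake on G protein signalling, 2.67 and 2.87 against 0.177 to 0.946 FPKM (adjusted p = 0.800, both limma). In these 3 genes, named for their small p, every FMC value was below both FM values. That pattern was found in 3 of the 19 subunits and 2 of the 22 regulators, kinases and arrestins, beside 8.22% of all genes.

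Gnb3, a beta subunit of photoreceptors, Rgs11, which speeds the turning off of G proteins, and Grk5, a kinase that phosphorylates active receptors, had overlapping groups, with FM 1 the highest library in each (19.7 FPKM for Rgs11 and 35.4 FPKM for Grk5). Of the effectors, Adcy3, an enzyme that makes cyclic AMP, measured 22.9 and 8.59 FPKM in the FM libraries against 2.28 to 7.22 FPKM in the FMC libraries. Prkaca, the catalytic subunit of the kinase that cyclic AMP activates, measured 3.39 and 2.33 against 4.30 to 10.6 FPKM, and Plcb4, a phospholipase switched on by G proteins, 8.80 and 2.41 against 9.74 to 20.8 FPKM. The genotypes did not overlap in these 3 of the 26 effectors, with every FMC value below in Adcy3 (8.22% of all genes) and above in Prkaca and Plcb4 (4.34% of all genes), and their adjusted p were 0.943, 0.993 and 0.985 in limma.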

How the data were processed

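Paired-end Illumina libraries were made from amplified cDNA of sorted cells, per the labels' protocols. Software in the submitters' processing notes is TopHat2 2.0.4, Bowtie2 2.0.0, Cufflinks 2.0.2 and CASAVA 1.8.2, with build mm9 and no roles. Use of strand in counting is not stated there. The deposited table holds FPKM by the authors, 1 value per gene and library. No counts were used, so depth is unknown and precision rests on the spread between libraries. Of 37447 genes, 426 lacked a value in 1 or more libraries and were dropped. Starts are printed from 1; the table counts them from 0, since 4 of 4 single-exon genes had a span equal to their transcript's length without adding 1.

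Values were tested as log2(FPKM + 1), a scale that understates changes of low genes, over the 18208 genes that reached 1 FPKM in 2 or more libraries. Two-sided limma tests (version 3.58.1, R 4.3.3) modelled the trend of variance with level, and p-values were adjusted by Benjamini-Hochberg over all genes; sex was tested with genotype kept, and their interaction was added after the data were seen. Fits were run on simulated data as a check. The share of changes recovered is not given here, so the power to find small changes is not shown. The receptors and lists were chosen with earlier results of these data known. Named beyond the receptors are the 3 genes of a list with the smallest p, and the closest gene by correlation; Alox5ap and Ltc4s were added after their values were seen. Coding sequences were aligned with Biopython 1.88.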

Additional observations from a re-analysis of the deposited data

How the results depend on the processing

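In 17 other fits of the genotype comparison limma called 0 of the 10 receptors, with adjusted p of at least 0.875. Over all genes the count of 5 was 1 with a pseudocount of 0.1, 10 without an intensity trend, 3 with a date block, 0 to 8 with 1 library left out (0 without FM 1, FM 2, FMC 2 or FMC 3 and 8 without FMC 4), and 0 with no filter, with a mean of at least 5 FPKM, without small and unnamed RNAs, with sex as a covariate and with a replicate block. Between the sexes the count of 0 was 0 to 4 with 1 FMC library left out (4 without FMC 1, all lower in female libraries). Some signs turned. For FMC minus FM, leave-one-out values ran from -0.14 to 0.24 for Gpr65, -0.50 to 0.50 for Lpar5 and -1.00 to 0.39 for Fpr2. For female minus male they ran from -0.37 to 0.14 for Gpr183, -0.36 to 0.22 for Ptafr and -0.03 to 0.24 for Cnr2. Cnr2 was -0.14 with median ratios and -0.15 with quantile normalization, which also gave -0.16 for Gpr34 and -0.27 for Gpr84. The cause of these turns was not tested. Fpr1 lies under a mean of 5 FPKM and has no value in that fit. With an FM library left out, the lone one is assumed to vary like FMC. Deviations from the group mean had r of 0.0314 and -0.0569 across genes in same-numbered libraries. In libraries with dates 1 day apart r was 0.0569 and -0.0685. With only 2 FM libraries, the deviation of FM 1 is that of FM 2 with its sign turned, so these values depend on each other. They cannot decide whether libraries were paired. With a replicate block no receptor was called, and Gpr65 was at -0.32. Depth is unknown, and with 2 FM libraries each genotype interval in the report is wide.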
